A study of Rattus norvegicus with 4 samples.

Results

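Liver barcodes that held transcripts of CD3 and CD8, with no or almost no transcripts of the Ly49 receptors, were described in 4 single-cell RNA sequencing libraries from livers of Lewis rats. A member was a barcode with at least 200 genes, at least 500 UMIs (unique molecular identifiers, each standing for 1 captured transcript) and at most 20% mitochondrial UMIs. It also held at least 1 UMI of Cd3e, Cd3d or Cd3g and at least 1 UMI of Cd8a or Cd8b, and at most 1 UMI of Klra22, Ly49i4, Ly49s5, Ly49s6 and Ly49s7 together. Barcodes with a UMI of Clec4f, Csf1r, Ncr1 or Stab2 were left out, and Cd79a, a further gene of that criterion, is not among the features of these tables. Members were thus chosen by measured UMIs of these genes, which are described and not tested. There were 220 members among 35900 kept barcodes. The 4 libraries, 1 per group, held 29 members in NEVLPcty, a liver perfused outside the body for 4 h at 37 °C with IL-10 and TGF-β, 65 in NEVLP2, a liver perfused in the same way without these cytokines, 51 in CS, a liver stored for 4 h at 4 °C, and 75 in naive, an untreated liver. The reading of CS and NEVLPcty rests on the design text of the series, and what the digit in NEVLP2 stands for is unexplained. NEVLPcty and NEVLP2 share the glucocorticoid hydrocortisone and also insulin, papaverine and heparin, which the labels list for a perfusate of William's E medium with albumin from humans and red cells from Lewis rats, depleted of leukocytes. The number of animals behind a library and the way the cells were isolated are not given in the sources used here. With 1 library per group, the treatment and any other difference between libraries cannot be told apart, and no test between libraries was made: intervals on levels, ratios and shares are 95% intervals for counting error only.

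CD8 T cells read peptides on MHC class I through a T cell receptor that signals through the CD3 chains and the kinase Lck, with CD8 as coreceptor. Naive cells recirculate through blood and lymph with the help of the sphingosine phosphate receptor S1pr1 and express the transcription factor Lef1, whereas effector and memory cells, common in liver, carry granzymes, perforin and chemokines such as Ccl5. Ly49 receptors are lectin-like receptors for MHC class I, best known from natural killer (NK) cells of rodents. TGF-β acts through SMAD proteins and induces its own inhibitors Smad7, Pmepa1 and Skil, IL-10 acts through STAT3, and the NF-κB and interferon pathways are common routes of T cell activation.

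Members made up 0.250% (0.167 to 0.358%) of kept barcodes in NEVLPcty, 0.638% (0.493 to 0.813%) in NEVLP2, 0.472% (0.352 to 0.621%) in CS and 2.27% (1.79 to 2.84%) in naive. The naive library therefore held the largest share, in the smallest number of kept barcodes (3300, against 10186 to 11616 in the other libraries). Among barcodes with a CD3 transcript the shares were 12.9% (8.84 to 18.1%) in NEVLPcty, 10.7% (8.38 to 13.5%) in NEVLP2, 11.9% (8.98 to 15.3%) in CS and 16.6% (13.3 to 20.3%) in naive, and these intervals overlapped. Members carried 364168 UMIs in NEVLPcty, 671694 in NEVLP2, 558771 in CS and 918574 in naive, with medians of 12652, 7774, 12565 and 11742 per cell. Of the members, 13 held the 1 Ly49 UMI that the rule allows, and 12 barcodes that otherwise passed lay just outside it with 2. Any pair of libraries shared 7 to 32 kept barcode sequences.

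The 220 barcodes were of 2 kinds, and the label of conventional CD8 T cells did not hold for the smaller kind. The first kind, 143 barcodes without a UMI of Siglech, held Cd3e or Cd3d in 141, Cd8a in 136, Cd8b in 115 and Lck in 132. The second kind, 77 barcodes, held Siglech, a lectin known from plasmacytoid dendritic cells. In 76 of them Siglech reached 5 to 44 UMIs (median 18.5), and the remaining barcode had 2. All 76 held Irf8, a transcription factor of dendritic cells, and Tyrobp, a signalling adaptor of innate cells. Lck was found in 2 of the 76, Cd3e or Cd3d in 2 and Bcl11b, a transcription factor of T cells, in 0. They had entered through Cd3g alone in 74 and Cd8b alone in 67. Over 7 T cell genes (Lck and Bcl11b again, with Zap70, Lat, Cd2, Cd6 and Cd28) the summed UMIs had a median of 0 in the 76, against 16 in the 143.

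Barcodes with at least 3 Siglech UMIs held Cd3g widely, whether members or not: 72.5% of 69 in NEVLPcty, 66.8% of 343 in NEVLP2, 66.0% of 215 in CS and 81.5% of 81 in naive. The same barcodes held Cd3e in at most 1.86% and Cd8b in 13.4 to 29.3%. Hepatocyte barcodes (at least 10% of UMIs from the hepatocyte list) were chosen with 0 UMIs of Cd3e, Cd3d, Cd3g and Ptprc. They therefore give no background for Cd3g. Cd8b, which was not part of that choice, was found in at most 0.0762% of them (862 in NEVLPcty, 1454 in NEVLP2, 1327 in CS and 1313 in naive). Their median depth was 1524 to 1899 UMIs, against 13272 to 17587 in barcodes with at least 3 Siglech UMIs, so these shares are not at equal depth. Siglech-holding members numbered 12 of 29 in NEVLPcty, 19 of 65 in NEVLP2, 31 of 51 in CS and 15 of 75 in naive, or 41.4% (23.5 to 61.1%), 29.2% (18.6 to 41.8%), 60.8% (46.1 to 74.2%) and 20% (11.6 to 30.8%). CS thus had the largest share of them and naive the smallest, so a difference between libraries over all members mixes both kinds. A further 20 members (2 in NEVLPcty, 11 in NEVLP2, 2 in CS and 5 in naive) had no Siglech but transcripts of other lineages. They held at least 5 UMIs of any of 8 other-lineage marker lists, or at least 1% of their UMIs from hepatocyte genes.

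**Figure D1:**
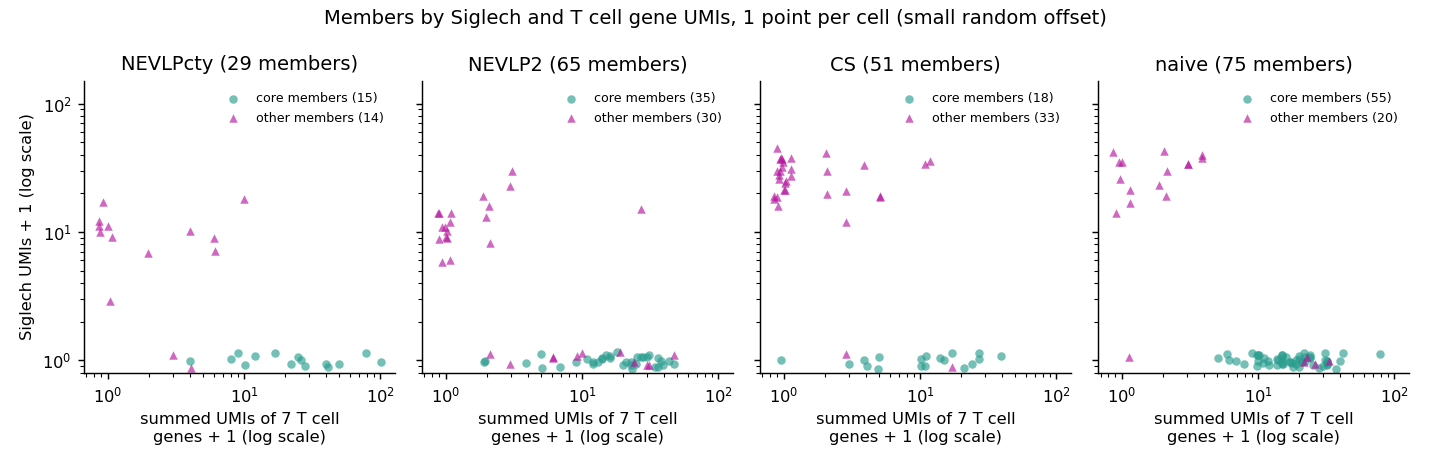
Each point is 1 member, placed by its summed UMIs of 7 T cell genes plus 1 (x axis, log scale) and its Siglech UMIs plus 1 (y axis, log scale), with a small random offset, in NEVLPcty, NEVLP2, CS and naive. Most members with Siglech lie at the upper left of each panel, with few or no T cell gene UMIs; an exception with 14 Siglech UMIs and 26 T cell gene UMIs lies at the upper right in NEVLP2. Core members lie along the bottom.

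The remaining 123 members are called core members here: 15 in NEVLPcty, 35 in NEVLP2, 18 in CS and 55 in naive. They had 0 Siglech UMIs, fewer than 5 UMIs of each of 8 other-lineage marker lists and less than 1% hepatocyte UMIs, a limit chosen after these values were seen, so no test was made on them between libraries. They summed to 168493 UMIs in NEVLPcty, 228172 in NEVLP2, 96570 in CS and 567195 in naive, with medians of 8514, 6426, 6590.5 and 10314 per cell, and made up 0.129, 0.344, 0.167 and 1.67% of kept barcodes. The T cell identity list, which holds the genes of the rule and their partners, summed to 7466 CPM (counts per 1000000 UMIs of the cells summed) in NEVLPcty, 10475 in NEVLP2, 10034 in CS and 7745 in naive. Neutrophil markers summed to 0 CPM in all libraries but naive (3.53 CPM), and B cell and plasma cell markers to at most 20.7 CPM. Macrophage and monocyte markers reached 238 CPM and endothelial markers 104 CPM, each highest in CS. All of these were among the 8 lists of the core limit, which itself holds their values down. NK cell and innate lymphoid markers summed to 635 CPM in NEVLPcty, 784 CPM in NEVLP2, 249 CPM in CS and 81.1 CPM in naive, with 4 of 11 at 0 in NEVLPcty, CS and naive and 3 of 11 in NEVLP2; Ncr3 was at 0 in all 4 libraries. The NK cell and innate lymphoid list was not among the 8 lists of the core limit, so that limit did not remove cells with these markers. Core cells with at least 5 UMIs of it numbered 5 of 15 in NEVLPcty, 4 of 35 in NEVLP2, 2 of 18 in CS and 1 of 55 in naive. Hepatocyte markers summed to 309 CPM in NEVLPcty, 1267 CPM in NEVLP2, 777 CPM in CS and 356 CPM in naive. Of 12 hepatocyte markers 3, 0, 2 and 1 were at 0 in these libraries. Both lists were thus highest in NEVLP2, and their part in the differences below was not tested.

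After each core cell was thinned to 2000 UMIs, a transcript of at least 1 of the effector genes Ccl5, Nkg7, Gzma, Gzmk and Prf1 was found in 9 of 15 cells in NEVLPcty (60%, 32.3 to 83.7%), 29 of 34 in NEVLP2 (85.3%, 68.9 to 95.05%), 9 of 13 in CS (69.2%, 38.6 to 90.9%) and 17 of 53 in naive (32.1%, 19.9 to 46.3%). Lef1 was found in 3 of 15 thinned cells in NEVLPcty, 2 of 34 in NEVLP2 (5.88%, 0.720 to 19.7%), 6 of 13 in CS and 25 of 53 in naive (47.2%, 33.3 to 61.4%). At this depth NEVLP2 had the larger share with an effector gene and naive the larger share with Lef1, and the intervals of these 2 libraries overlapped in neither count. Hepatocyte barcodes thinned in the same way held an effector gene in 7.12% in NEVLPcty, 15.9% in NEVLP2, 8.33% in CS and 6.99% in naive, and Lef1 in at most 0.163%. Core cells lay above these values. As hepatocyte barcodes were chosen without UMIs of Cd3e, Cd3d, Cd3g and Ptprc, the values can understate stray T cell transcripts. Thinning left out 1 cell in NEVLP2, 5 in CS and 2 in naive; without it, cells with an effector gene were 86.7% in NEVLPcty, 94.3% in NEVLP2 (80.8 to 99.3%), 61.1% in CS and 72.7% in naive (59.0 to 83.9%), and the intervals of NEVLP2 and naive overlapped. A difference in the level of a gene between libraries can therefore lie in the mixture of cells or in the level per cell. The main lists were also compared over core cells with a UMI of Ccl5 or Nkg7 (12 in NEVLPcty, 28 in NEVLP2, 8 in CS and 24 in naive). As 1 UMI was enough, in naive this set held cells with Lef1 beside cells with many Ccl5 UMIs and no Lef1. It therefore cannot separate the mixture of cells from the level per cell.

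Core members of the liver perfused without cytokines carried far more transcripts of cytotoxic granule proteins than core members of the untreated liver. Gzmb, a granzyme that cleaves caspases in target cells, reached 1249 CPM (95% interval 1108 to 1403) in NEVLP2, against 10.4 CPM (95% interval 0.262 to 57.7) in CS and 14.1 CPM (95% interval 6.09 to 27.8) in naive. It was found in 16 of 35 cells in NEVLP2, 1 of 18 in CS and 5 of 55 in naive, and was 88.6-fold (95% interval 44.3 to 207) higher in NEVLP2 than in naive. Gzma, another granzyme, had 2069 CPM in NEVLP2, 31.1 CPM in CS and 52.9 CPM in naive, a ratio of NEVLP2 over naive of 39.1-fold (95% interval 27.03 to 58.6). Gzmk, the granzyme of many memory CD8 cells, had 3103 CPM in NEVLP2, 166 CPM in CS and 256 CPM in naive and was 12.1-fold (95% interval 10.1 to 14.6) higher in NEVLP2 than in naive. Prf1, the pore-forming perforin, had 1157 CPM in NEVLP2, 238 CPM in CS and 100.5 CPM in naive and was 11.5-fold (95% interval 8.62 to 15.6) higher. The NEVLP2 intervals of these 4 genes lay above those of CS and naive, and the top cell for each gene held 28.4% of the NEVLP2 UMIs of Gzmb, 34.5% of Gzma, 17.1% of Gzmk and 31.4% of Prf1. Gzmbl3, a sequence relative of Gzmb, had 82 UMIs in NEVLP2 and 0 in CS and naive, at least 67.9-fold higher than in naive when naive is set to 3 counts; how reads shared by such close copies were counted is not known here. Of the cytotoxicity list, 8 of 11 measured genes were at least 2-fold higher in NEVLP2 than in naive and 0 were at least 2-fold lower, with a median log2 ratio of 2.09. Over all 3960 genes with at least 20 UMIs in both libraries together, 19.6% were at least 2-fold higher and 13.3% at least 2-fold lower, with a median of 0.17. With median-of-ratios scaling in place of totals the split was 549 higher and 688 lower, against 776 and 526, and the all-gene median was -0.07; the list directions below are relative to that shift. In cells with Ccl5 or Nkg7 8 of 11 measured genes of the list were at least 2-fold higher, with a median of 1.25. Over all 220 members the count was 7 of 11 and the median 1.67, against 0.19 over all 6327 genes (17.5% higher, 11% lower; 1110 and 694 genes by totals, 713 and 1020 by median of ratios).

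Chemokines and cytokines differed gene by gene. Ccl5, a chemokine stored by memory CD8 cells, had 9692 CPM in NEVLPcty, 11824 CPM in NEVLP2, 984 CPM in CS and 2488 CPM in naive; in CS 93.7% of its UMIs came from 1 cell. It was 4.75-fold (95% interval 4.46 to 5.07) higher in NEVLP2 than in naive. Ccl4, a chemokine of activated T cells, had 1668 CPM in NEVLPcty, 2494 CPM in NEVLP2, 1491 CPM in CS and 2424 CPM in naive, with NEVLP2 and naive intervals that overlapped. Ifng, the effector cytokine interferon gamma, had 219 CPM in NEVLP2 (50 UMIs, 58% of them in 1 cell), 31.1 CPM in CS and 19.4 CPM in naive. Tgfb1, a ligand that T cells secrete, was 4.44-fold (95% interval 3.32 to 5.97) higher in NEVLP2 (587 CPM) than in naive (132 CPM). Il17a was found in 1 naive cell with 46 UMIs and in no other core cell.

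Genes of the NF-κB pathway, which feeds back on itself through its own inhibitors, were higher almost throughout the list in NEVLP2. Nfkbia, the inhibitor IκBα, had 1753 CPM (95% interval 1585 to 1934) in NEVLP2, against 104 CPM (95% interval 49.7 to 190.4) in CS and 266 CPM (95% interval 225 to 312) in naive, 6.58-fold (95% interval 5.45 to 7.99) higher in NEVLP2 than in naive and 16.9-fold (95% interval 9.11 to 35.6) higher than in CS. Traf1, a signalling adaptor of TNF receptors, had 885 CPM (95% interval 767 to 1016) in NEVLP2, against 104 CPM (95% interval 49.7 to 190.4) in CS and 45.8 CPM (95% interval 29.9 to 67.2) in naive, 19.3-fold (95% interval 12.8 to 30.3) higher than in naive. Icam1, an adhesion molecule, had 346 CPM in NEVLP2, 20.7 CPM in CS and 5.29 CPM in naive, and Birc3, an inhibitor of apoptosis, had 267 CPM in NEVLP2, 0 CPM in CS and 3.53 CPM in naive. Icam1 was 65.5-fold (95% interval 21.6 to 324) and Birc3 75.8-fold (95% interval 20.1 to 640.2) higher in NEVLP2 than in naive, with wide intervals because naive held 3 and 2 UMIs. In all, 15 of 16 measured targets were at least 2-fold higher in NEVLP2 than in naive (median log2 ratio 2.78), and 11 of 12 were at least 2-fold higher than in CS (median 2.82; 19.4% of 2191 genes higher and 7.3% lower, all-gene median 0.17). Over all members these were 13 of 18 against naive and 14 of 18 against CS, with medians of 2.21 and 2.46 (11.5% of 5890 genes were higher than in CS over all members). Among core cells with Ccl5 or Nkg7 it was 12 of 13 against naive, with a median of 2.94. Hepatocyte barcodes of NEVLP2 held 485 CPM of Nfkbia, 94.9 CPM of Icam1 and 10.2 CPM of Traf1, so the core levels of these 3 genes were above those of hepatocyte barcodes in the same library.

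Interferon response genes were likewise higher in NEVLP2. Isg15, a ubiquitin-like protein induced by interferon, had 824 CPM (95% interval 710.4 to 951) in NEVLP2 (40.4% from 1 cell), against 82.8 CPM (95% interval 35.8 to 163) in CS and 15.9 CPM (95% interval 7.26 to 30.1) in naive. Gbp5, a guanylate-binding protein induced by interferon gamma, had 416 CPM (95% interval 337 to 509) in NEVLP2, 41.4 CPM (95% interval 11.3 to 106) in CS and 33.5 CPM (95% interval 20.2 to 52.3) in naive, 12.4-fold (95% interval 7.54 to 21.5) higher in NEVLP2 than in naive and 10.1-fold (95% interval 3.80 to 37.6) higher than in CS. Tap1, part of the transporter that loads peptides on MHC class I, had 732 CPM (95% interval 625 to 852) in NEVLP2, 176 CPM (95% interval 103 to 282) in CS and 86.4 CPM (95% interval 63.9 to 114) in naive, 8.47-fold (95% interval 6.13 to 11.9) higher than in naive. Irf7, a transcription factor of the type I interferon response, had 153 CPM in NEVLP2, 51.8 CPM in CS and 7.05 CPM in naive. For these 4 genes, intervals in NEVLP2 did not overlap those in naive. In all, 16 of 18 measured genes were at least 2-fold higher in NEVLP2 than in naive (median log2 ratio 2.69), and 12 of 18 than in CS (median 1.72). Over all members it was 15 of 23 against naive (median 1.85) and 14 of 23 higher with 2 lower against CS (median 1.21). Of the MHC class I list, 7 of 13 genes were at least 2-fold higher than in naive (median 1.31), and 2 of 13 over all members (median 0.62). B2m, the light chain of MHC class I, had 18591 CPM in NEVLP2, 10562 CPM in CS and 7172 CPM in naive, a ratio of 2.59-fold (95% interval 2.48 to 2.71) over naive. Hepatocyte barcodes of NEVLP2 held 36.8 CPM of Gbp5, 21.02 CPM of Tap1 and 119.5 CPM of Isg15.

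The promoters of 4 of these genes, chosen after their values were seen, are shown because their NEVLP2 intervals lie above those of CS and naive and because letters bound by NF-κB or interferon factors can be read in them. Each window runs from 250 bases before to 50 after the RefSeq start site on its own strand, in build GRCr8: Nfkbia at chr6:78597023-78597322 (minus strand), Traf1 at chr3:38635721-38636020 (minus strand), Tap1 at chr20:4668494-4668793 (minus strand) and Gbp5 at chr2:233910749-233911048 (plus strand). Capitals mark matches, on either strand, to GGG, 3 bases of any kind and TTCC, the letters of an NF-κB site, or to GAAA, 2 bases of any kind and GAAA, those of an interferon-stimulated response element.
Nfkbia: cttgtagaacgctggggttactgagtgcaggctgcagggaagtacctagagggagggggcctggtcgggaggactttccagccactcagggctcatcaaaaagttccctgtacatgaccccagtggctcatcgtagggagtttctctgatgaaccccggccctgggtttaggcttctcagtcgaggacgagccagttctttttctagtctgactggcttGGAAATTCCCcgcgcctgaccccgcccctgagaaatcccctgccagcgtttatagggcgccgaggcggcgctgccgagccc
Traf1: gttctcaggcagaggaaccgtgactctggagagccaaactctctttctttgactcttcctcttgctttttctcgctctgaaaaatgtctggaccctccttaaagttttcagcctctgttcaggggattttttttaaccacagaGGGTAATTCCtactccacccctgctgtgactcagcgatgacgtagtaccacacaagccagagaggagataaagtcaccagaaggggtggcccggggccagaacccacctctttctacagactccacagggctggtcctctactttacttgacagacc
Tap1: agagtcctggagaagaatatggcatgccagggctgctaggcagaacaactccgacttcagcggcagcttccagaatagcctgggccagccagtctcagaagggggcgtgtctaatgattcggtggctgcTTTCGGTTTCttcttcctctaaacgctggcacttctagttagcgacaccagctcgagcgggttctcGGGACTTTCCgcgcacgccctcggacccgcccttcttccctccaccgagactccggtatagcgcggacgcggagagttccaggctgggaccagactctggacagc
Gbp5: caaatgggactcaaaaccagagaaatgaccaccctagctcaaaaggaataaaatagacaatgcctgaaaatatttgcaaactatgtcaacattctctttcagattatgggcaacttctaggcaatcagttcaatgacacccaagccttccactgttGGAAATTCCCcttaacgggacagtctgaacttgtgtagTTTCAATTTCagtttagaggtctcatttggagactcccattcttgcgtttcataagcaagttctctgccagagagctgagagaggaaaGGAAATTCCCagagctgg

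Nfkbia and Traf1 each held 1 match to the NF-κB letters, starting -31 and -107 bases from the start site, and neither held a match to the interferon letters. Tap1 held 1 of each, at -55 and -121 bases, and Gbp5 held 2 NF-κB matches and 1 interferon match. The NF-κB letters were found in 1796 of 33469 RefSeq windows of this length (5.37%) and in 9 of the 18 windows of the NF-κB list. The interferon letters were found in 1312 of all windows (3.92%) and in 16 of the 23 windows of the interferon list. Windows with both numbered 52 (0.155%). The recirculation list held neither in its 10 windows, and the cytotoxicity list held the NF-κB letters in 0 and the interferon letters in 4 of 13 windows. A match describes the sequence only; no binding was measured.

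Genes of recirculating naive T cells were lower in NEVLP2 than in naive. Lef1 had 83.3 CPM (95% interval 50.1 to 130.04) in NEVLP2, in 2 of 35 cells with 63.2% of its UMIs in 1 of them, against 445 CPM (95% interval 322 to 599.8) in 8 of 18 cells in CS and 488 CPM (95% interval 433 to 549) in 43 of 55 cells in naive. It was 5.86-fold (95% interval 3.68 to 9.89) lower in NEVLP2 than in naive. Core cells with only 1 CD8 UMI numbered 1 in NEVLPcty, 4 in NEVLP2, 1 in CS and 7 in naive. All 7 of naive held Lef1, and their place among CD8 cells rests on that 1 transcript. S1pr1 had 101 CPM in NEVLP2, 62.1 CPM in CS and 233 CPM in naive, 2.31-fold (95% interval 1.48 to 3.77) lower in NEVLP2 than in naive. Satb1, a chromatin organiser of T cells, had 83.3 CPM in NEVLP2, 207 CPM in CS and 264 CPM in naive. Of the recirculation list, 6 of 9 measured genes were at least 2-fold lower and 0 higher (median log2 ratio -1.67); over all members 1 was higher and 7 of 11 lower (median -1.36). Among core cells with Ccl5 or Nkg7, which in naive include cells with Lef1, 5 of 6 were at least 2-fold lower, with a median of -1.77. Against CS, 3 of 5 measured genes were lower and 1 higher. Ramp1, a subunit of the receptor for the neuropeptide CGRP, was among the lowest genes, with 8.77 CPM in NEVLP2, 321 CPM in CS and 316 CPM in naive, 36.004-fold (95% interval 9.82 to 299.6) lower in NEVLP2 than in naive.

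Of the glucocorticoid response list, 2 of 11 measured genes were at least 2-fold higher and 5 lower in NEVLP2 than in naive (median log2 ratio -0.86, and -1.09 to -0.51 over 11 other settings). An effect of the hydrocortisone in the perfusate cannot be told apart from perfusion itself. Over all members 4 of 13 were higher and 3 lower (median -0.19). In NEVLPcty over NEVLP2 the list had 2 of 9 higher and 2 lower in core members (median -0.37), and 5 of 12 higher and 3 lower over all members (median 0.71). Tsc22d3, which encodes the glucocorticoid-induced protein GILZ, had 160.2 CPM in NEVLPcty, 123 CPM in NEVLP2, 994 CPM in CS and 651 CPM in naive and was 5.30-fold (95% interval 3.61 to 8.09) lower in NEVLP2 than in naive. Sgk1, a kinase of the same response, had 35.6 CPM in NEVLPcty, 175 CPM in NEVLP2, 10.4 CPM in CS and 22.9 CPM in naive and was 7.65-fold (95% interval 4.01 to 15.6) higher. Both perfused libraries lay below both unperfused libraries for Tsc22d3. Of 10 measured glycolysis and hypoxia genes, 6 were at least 2-fold higher and 1 lower (median 1.41); Ldha, lactate dehydrogenase A, had 1193 CPM in NEVLPcty, 1324 CPM in NEVLP2, 414 CPM in CS and 414 CPM in naive. Of 11 measured activation genes, 7 were higher and 2 lower, and Cd83, a membrane protein of activated lymphocytes, had 32 UMIs in NEVLP2 and 0 in CS and naive. Ribosomal protein genes were at least 2-fold lower in 18 of 65, with a median of -0.47.

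**Figure D2:**
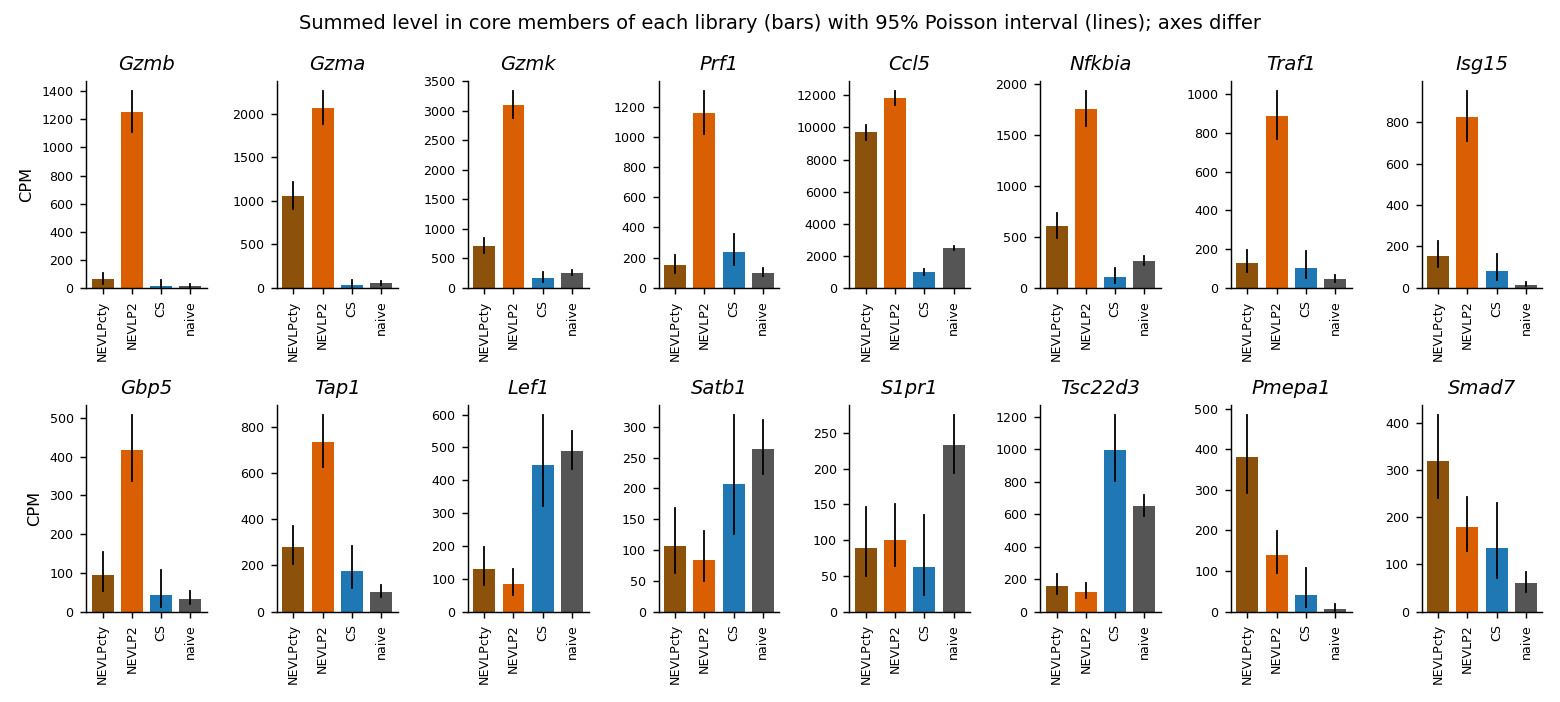
Bars show the summed level in CPM (y axis, a separate scale per gene) of 16 genes in core members of NEVLPcty, NEVLP2, CS and naive, from left to right in each panel, and lines the 95% Poisson interval of the count. Granzyme, perforin, NF-κB and interferon genes are highest in NEVLP2, Lef1, Satb1 and S1pr1 are highest in naive, and Pmepa1 and Smad7 are highest in NEVLPcty.

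Interferon, NF-κB and AP-1 genes were lower in core members of NEVLPcty, with IL-10 and TGF-β in the perfusate, than in core members of NEVLP2. The glycolysis list did not differ in median by 2-fold between these libraries at the main settings. This comparison and that of NEVLP2 over naive share the 1 NEVLP2 library, so a gene that is high in that library by chance appears higher in one and lower in the other. Of 2644 genes compared, 9.98% were at least 2-fold higher and 11.3% at least 2-fold lower in NEVLPcty than in NEVLP2, with an all-gene median log2 ratio of 0.03. Among interferon genes 15 of 18 were at least 2-fold lower and 0 higher (median -1.65), among NF-κB targets 10 of 14 lower and 0 higher (median -1.47), and among early response genes of the AP-1 family 8 of 14 lower (median -1.51). Over all members these were 16 of 21, 7 of 18 and 5 of 16, with medians of -1.63, -0.93 and -0.72, against 8.89% of all 5357 genes lower and 8.25% higher (median 0.04). Isg15 had 154 CPM (95% interval 101 to 226) in NEVLPcty, against 824 CPM in NEVLP2, 5.34-fold (95% interval 3.53 to 8.39) lower. Gbp5 had 94.96 CPM (95% interval 54.3 to 154) in NEVLPcty, 4.38-fold (95% interval 2.57 to 7.98) lower than in NEVLP2, and Tap1 279 CPM (95% interval 205 to 371), 2.62-fold (95% interval 1.89 to 3.71) lower. Both still lay above the naive values of 33.5 CPM and 86.4 CPM. Nfkbia had 605 CPM (95% interval 494 to 735) and Traf1 131 CPM (95% interval 81.8 to 198) in NEVLPcty, 2.90-fold (95% interval 2.32 to 3.64) and 6.78-fold (95% interval 4.36 to 11.1) lower than in NEVLP2. Gadd45b, an early stress gene, had 47.5 CPM in NEVLPcty and 530.3 CPM in NEVLP2. In each of these genes the intervals of the 2 perfused libraries did not overlap. Of the glycolysis and hypoxia list 0 of 8 measured genes were at least 2-fold higher and 0 lower (median 0.15, and -1.07 to 0.45 over 11 other settings). Ldha had 1193 CPM in NEVLPcty and 1324 CPM in NEVLP2.

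Cytotoxic genes differed in size of effect. Gzmb had 59.3 CPM (95% interval 28.5 to 109) in NEVLPcty, in 4 of 15 cells, and was 21.05-fold (95% interval 11.3 to 44.4) lower than in NEVLP2 (1249 CPM in 16 of 35 cells). Prf1 had 148 CPM in NEVLPcty and was 7.80-fold (95% interval 5.17 to 12.3) lower, and Gzmk had 706 CPM and was 4.39-fold (95% interval 3.61 to 5.38) lower. Gzma had 1050.5 CPM (95% interval 901 to 1217) in NEVLPcty and 2069 CPM (95% interval 1886 to 2264) in NEVLP2, and Ccl5 had 9692 CPM and 11824 CPM. These 2 genes differed less than 2-fold between the perfused libraries and were above naive in both. Ccl3, a chemokine of activated cells, had 94.96 CPM in NEVLPcty, 1381 CPM in NEVLP2, 766 CPM in CS and 1377 CPM in naive, 14.5-fold (95% interval 8.81 to 25.7) lower in NEVLPcty than in NEVLP2. Ifng had 0 UMIs in NEVLPcty, at least 12.3-fold lower than in NEVLP2 with NEVLPcty set to 3 counts. Of the cytotoxicity list 4 of 9 genes were at least 2-fold lower (median -0.98), and 5 of 11 over all members (median -0.72). Of the MHC class I list 8 of 12 were lower (median -1.11), with B2m at 8695 CPM in NEVLPcty and 18591 CPM in NEVLP2. Hepatocyte markers, also lower in all 6 measured, summed to 309 CPM in NEVLPcty and 1267 CPM in NEVLP2; their part in these differences was not tested. Within core cells that held Ccl5 or Nkg7, the medians were -1.50 for interferon genes, -1.73 for NF-κB targets and -0.98 for cytotoxicity.

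The NEVLPcty core values also rested on 15 cells, of which 1 with 38111 UMIs held most cell cycle transcripts: all 28 UMIs of Top2a, a topoisomerase of dividing cells, and all 22 of the spindle protein Nusap1. It held 34 UMIs of Cd3e but only 1 of Cd8a and 1 of Cd8b, so its place among CD8 cells rests on few transcripts. Of the cell cycle list 7 of 9 measured genes were at least 2-fold higher in NEVLPcty than in NEVLP2 (median log2 ratio 1.81), but 2 of 5 without that cell (median 0.28). Without it the medians were -1.39 for interferon genes (13 of 18 lower) and -1.11 for NF-κB targets (8 of 14 lower), while the MHC class I list had 1 of 12 genes lower (median -0.82) in place of 8 of 12. Vim, the filament protein vimentin, had 3876 CPM in NEVLPcty and 280.5 CPM in NEVLP2, with 55.9% of the NEVLPcty UMIs from 1 cell, and its log2 ratio was -0.39 in the 4 NEVLPcty and 13 NEVLP2 core members without any UMI of Tyrobp, Fcer1g and 8 further lineage genes. Icos, a costimulatory receptor, had 623 CPM in 4 of 15 NEVLPcty cells (47.6% from 1 cell) and 21.9 CPM in NEVLP2. Anxa1, which encodes annexin A1, had 309 CPM in NEVLPcty and 13.1 CPM in NEVLP2, and Ccr6, a chemokine receptor, had 315 CPM and 8.77 CPM, with 69.2 and 60.4% of the NEVLPcty UMIs from 1 cell.

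Feedback genes of TGF-β signalling were led by Pmepa1 and Smad7, which were higher with the cytokines in the perfusate. Pmepa1, an inhibitor of SMAD signalling, had 379.8 CPM (95% interval 293 to 485) in 11 of 15 cells in NEVLPcty, 140.2 CPM (95% interval 95.9 to 198) in NEVLP2, 41.4 CPM (95% interval 11.3 to 106) in CS and 7.05 CPM (95% interval 1.92 to 18.1) in naive. It was 2.71-fold (95% interval 1.75 to 4.28) higher in NEVLPcty than in NEVLP2 and 19.9-fold (95% interval 7.05 to 77.4) higher in NEVLP2 than in naive, so the perfused liver without added cytokine already lay above naive. Smad7, an inhibitory SMAD, had 320.5 CPM (95% interval 241 to 418) in NEVLPcty, 179.7 CPM (95% interval 129 to 244) in NEVLP2, 135 CPM (95% interval 71.7 to 230.2) in CS and 59.9 CPM (95% interval 41.5 to 83.8) in naive, and was 1.78-fold (95% interval 1.17 to 2.75) higher in NEVLPcty than in NEVLP2. The intervals of the 2 perfused libraries did not overlap for Pmepa1; for Smad7 they overlapped, although the interval of its ratio left out 1. Skil, which encodes the SMAD repressor SnoN, had 77.2 CPM in NEVLPcty, 109.6 CPM in NEVLP2, 31.1 CPM in CS and 7.05 CPM in naive, with overlapping intervals in the perfused libraries. Of 7 measured genes of the TGF-β list 1 was at least 2-fold higher in NEVLPcty and 0 lower (median log2 ratio -0.31). Against naive, 6 of 8 were higher in NEVLP2 (median 1.87). Over all members 5 of 14 were higher in NEVLPcty than in NEVLP2 (median 0.66). The ligand gene Tgfb1 had 475 CPM in NEVLPcty, 587 CPM in NEVLP2, 166 CPM in CS and 132 CPM in naive. Receptor transcripts were few: Tgfbr1 had 1, 4, 1 and 5 UMIs in core members of NEVLPcty, NEVLP2, CS and naive, and Tgfbr2 2, 0, 0 and 9, so no difference was detectable at this depth.

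Genes of the IL-10 and STAT3 list were not higher with the cytokines. Of 9 measured, 0 were at least 2-fold higher and 4 lower in NEVLPcty than in NEVLP2 (median log2 ratio -0.99); over all members 1 of 13 was higher and 6 lower (median -0.65). Stat3 had 208 CPM in NEVLPcty, 316 CPM in NEVLP2, 93.2 CPM in CS and 61.7 CPM in naive, and Fgl2, a secreted protein of the fibrinogen family, had 297 CPM in NEVLPcty, 1486 CPM in NEVLP2, 756 CPM in CS and 455 CPM in naive. Fgl2 was 5.01-fold (95% interval 3.71 to 6.88) lower in NEVLPcty than in NEVLP2, and Cish, an inhibitor of cytokine signalling, was 3.96-fold (95% interval 2.06 to 8.36) lower. Il10rb, the shared receptor chain, had 3, 10, 7 and 13 UMIs in NEVLPcty, NEVLP2, CS and naive core members. Il10ra, the ligand-binding chain, had 1, 3, 1 and 11 UMIs over all members of these libraries, too few for a comparison. Lag3, an inhibitory receptor, was 2.47-fold (95% interval 1.65 to 3.74) higher in NEVLPcty (421 CPM) than in NEVLP2 (171 CPM), with 135 CPM in CS and 125 CPM in naive.

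**Figure D3:**
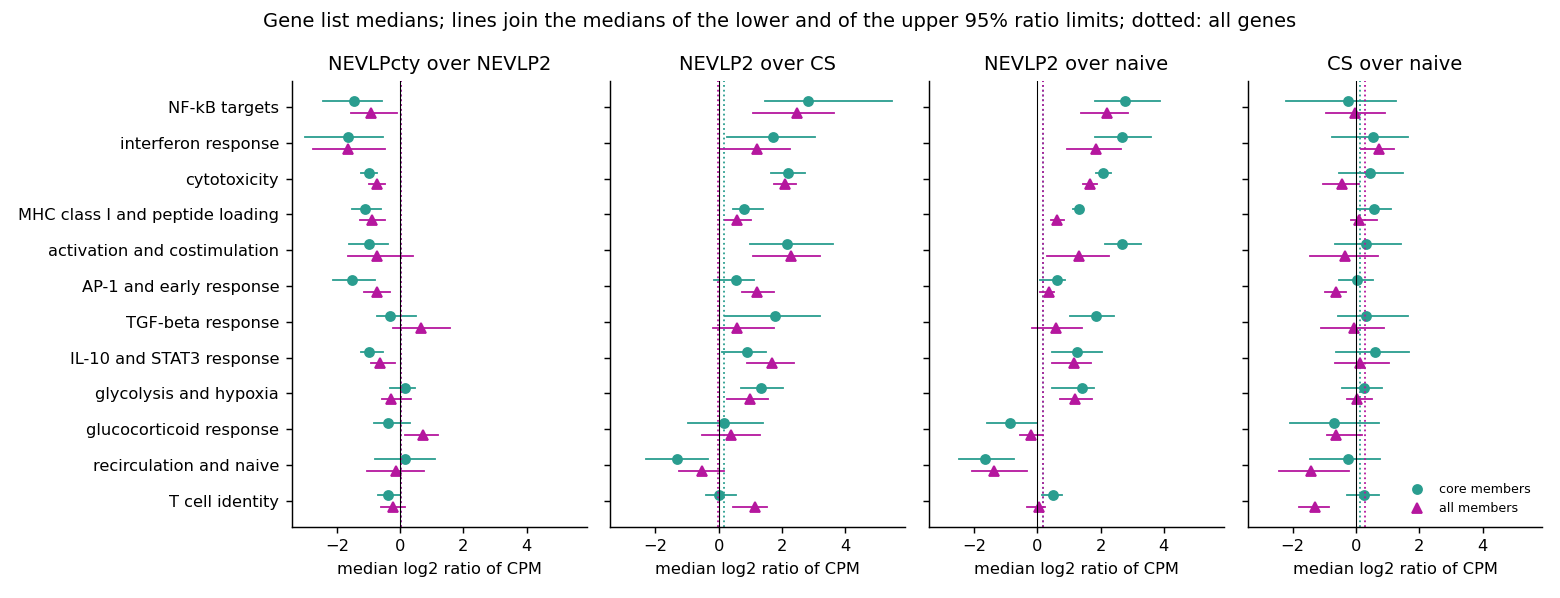
Points show the median log2 ratio of CPM (x axis) over the measured genes of 12 lists (y axis) in 4 comparisons, for core members (circles) and all members (triangles); lines join the medians of the lower and upper 95% ratio limits, and dotted lines mark the median of all genes. NF-κB, interferon and cytotoxicity medians lie right of 0 for NEVLP2 over naive (2.78, 2.69 and 2.09 in core members) and left of 0 for NEVLPcty over NEVLP2, 2 comparisons that share the NEVLP2 library.

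Core members of the cold-stored liver, 18 cells, were higher than naive in part of the effector and lectin-like receptor lists. NF-κB targets had genes on both sides. Most measured cell cycle genes were lower than in naive, where the top cell held most UMIs of Mki67 and of Stmn1. Of 3439 genes, 9.22% were at least 2-fold higher and 8.11% at least 2-fold lower in CS than in naive (all-gene median log2 ratio 0.14). With median-of-ratios scaling 216 were higher and 405 lower, against 317 and 279 by totals, with an all-gene median of -0.03. NF-κB targets had 2 of 7 higher and 2 lower (median -0.25), interferon genes 2 of 10 higher and 0 lower (median 0.53), and the recirculation list 1 of 9 lower (median -0.25). Among core cells with Ccl5 or Nkg7 the recirculation list had 4 of 6 lower (median -1.17). Of the cell cycle list 5 of 8 were lower and 0 higher (median -1.18, and -1.385 to -0.49 over 10 other settings). In naive, 1 cell held all 51 UMIs of Mki67, and the top cell held 77.0% of the 126 UMIs of Stmn1. Of cytokines and chemokines 3 of 8 were lower and 0 higher (median -0.77). Of the effector and memory list 3 of 9 were higher and 0 lower (median 0.94), of cytotoxicity 4 of 10 higher and 0 lower (median 0.43), and of lectin-like receptors other than Ly49 2 of 4 higher and 0 lower (median 1.19). Heat shock genes had 3 of 9 lower and 0 higher (median -0.71). Lef1 had 445 CPM in CS and 488 CPM in naive, with overlapping intervals. S1pr1 had 62.1 CPM (95% interval 22.8 to 135) in CS and 233 CPM (95% interval 195 to 276) in naive, 3.75-fold (95% interval 1.68 to 10.4) lower, and Cxcr4, a homing receptor, was 3.76-fold (95% interval 2.31 to 6.52) lower. Genes of effector cells differed in direction. Higher in CS were Klrd1, the CD94 receptor chain, 4.89-fold (95% interval 3.22 to 7.41), Il2rb, a receptor chain for IL-2 and IL-15, 4.48-fold (95% interval 2.67 to 7.46), Gzmm, a granzyme, 2.97-fold (95% interval 2.24 to 3.93), and Socs1, an inhibitor of cytokine signalling, 7.21-fold (95% interval 3.95 to 13.3); the top CS cell for each gene held 37.8% of the UMIs of Klrd1, 41.4% of Il2rb, 38.5% of Gzmm and 55.6% of Socs1. Ccl5 was 2.53-fold (95% interval 2.05 to 3.15) lower in CS (984 CPM in 3 of 18 cells) than in naive (2488 CPM in 19 of 55 cells). Gzmb, Gzma and Gzmk had 10.4, 31.1 and 166 CPM in CS, against 14.1, 52.9 and 256 CPM in naive, with overlapping intervals for each. MHC class II genes were higher in all 5 measured, but 1 CS cell held 72.7% of the UMIs of RT1-Db1. The cold-inducible RNA-binding genes Cirbp (17.8 CPM in NEVLPcty, 8.77 CPM in NEVLP2, 135 CPM in CS and 95.2 CPM in naive) and Rbm3 (1092 CPM in NEVLPcty, 644 CPM in NEVLP2, 704 CPM in CS and 536 CPM in naive) did not differ by 2-fold between CS and naive. Over all members, of which 60.8% in CS and 20% in naive held Siglech, 14.1% of 6177 genes were higher and 6.67% lower (872 and 412 genes by totals, 497 and 626 by median of ratios), and the T cell identity list had a median of -1.30, against 0.24 in core members.

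The 77 Siglech-holding members differed between libraries in part of the same lists. In NEVLP2 over CS, NF-κB targets had 9 of 14 measured genes at least 2-fold higher (median log2 ratio 1.21), and in NEVLP2 over naive 6 of 13 (median 0.94). Interferon genes had 3 of 9 higher and 2 lower over naive (median -0.31), and 16 of 18 in core members; whether the 2 kinds of member differ was not tested. The TGF-β list had 5 of 10 genes at least 2-fold higher in NEVLPcty than in NEVLP2 and 0 lower (median 1.69). Over all genes, 10.7% were higher and 14.7% lower in NEVLP2 than in CS, 14.7% and 12.9% in NEVLP2 than in naive, and 6.81% and 8.55% in NEVLPcty than in NEVLP2.

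Members were then set against 104 Ly49-positive CD8 T cells, which passed the same gate with at least 2 Ly49 UMIs (16 in NEVLPcty, 28 in NEVLP2, 13 in CS and 47 in naive). UMIs were summed per library and cell group, and the 4 libraries served as replicates of this contrast, with the library as a block, in edgeR's quasi-likelihood test with Benjamini-Hochberg adjustment. These p-values measure the spread between 4 libraries that also differ in treatment, and the genes of the rule are not read as results. At an adjusted p below 0.05, 483 of 6086 genes (7.94%) were higher in members and 243 (3.99%) lower. Xcl1, a chemokine that attracts cross-presenting dendritic cells, was lower in members in 4 of 4 libraries, with UMIs in members against Ly49-positive cells of 23 against 56 in NEVLPcty, 131 against 461 in NEVLP2, 24 against 42 in CS and 92 against 568 in naive, and a log2 ratio of -3.28 (adjusted p 6.15e-07). The lectin-like receptor genes Klrd1, with a log2 ratio of -2.81 (adjusted p 5.38e-06), and Klrk1 (NKG2D), with -2.24 (adjusted p 5.46e-05), were also lower in 4 of 4 libraries; reads of close relatives in this family may be shared. The granzyme gene Gzmm, with -2.94 (adjusted p 8.01e-05), and the cathepsin W gene Ctsw, with -1.80 (adjusted p 5.46e-05), were lower in 4 of 4 libraries too. Pdcd1lg2, which encodes the PD-1 ligand PD-L2, was lower with -2.69 (adjusted p 5.35e-05), and Magohb, a subunit of the exon junction complex, with -3.25 (adjusted p 1.57e-05). Genes higher in members were led by the immunoglobulin heavy chain gene Ighm, with 4.03 (adjusted p 6.15e-07), the growth factor receptor gene Kdr, with 6.02 (adjusted p 2.02e-06), Ly86, with 6.11 (adjusted p 2.02e-06), and the MHC class II gene RT1-Bb, with 4.31 (adjusted p 3.95e-06). Siglech-holding barcodes numbered 77 among members and 1 among the Ly49-positive cells, in NEVLP2. When both groups were held to 0 Siglech UMIs and few UMIs of other lineages, 13 of 2997 genes (0.434%) were higher in members and 30 (1%) lower. There the log2 ratios were -2.66 for Xcl1, -1.46 for Klrd1, -1.56 for Gzmm, -3.44 for Magohb and -2.69 for Pdcd1lg2, and each of these 5 still passed in edgeR. The calls of Klrk1, with -0.83 (adjusted p 0.137), Ctsw, with -0.46 (adjusted p 0.384), and RT1-Bb, with 0.74 (adjusted p 0.525), were lost in edgeR there, and Ighm, Kdr and Ly86 did not pass the filter on low counts. Among cells without any UMI of the 10 wider lineage genes (4, 13, 6 and 21 members and 6, 5, 1 and 18 Ly49-positive cells in NEVLPcty, NEVLP2, CS and naive), Gzmm had a log2 ratio of -0.17 (edgeR adjusted p 0.99) and Klrd1 -1.13 (edgeR adjusted p 0.203).

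Against 934 barcodes of the same gate with CD3 but no CD8 UMI and at most 1 Ly49 UMI, called CD8-negative here (122 in NEVLPcty, 351 in NEVLP2, 194 in CS and 267 in naive), 12 of 8100 genes (0.148%) were higher in members and 17 (0.21%) lower in the same edgeR test. Genes of cytotoxic cells among the 12 higher in members were Gzmm with a log2 ratio of 4.40 (adjusted p 0.00808), Nkg7 with 4.27 (adjusted p 0.017), Gzmk with 4.64 (adjusted p 0.0306), Ccl5 with 4.69 (adjusted p 0.0388) and Gzmb with 3.99 (adjusted p 0.0119). Gzmb UMIs in members against CD8-negative cells were 10 against 0 in NEVLPcty, 310 against 98 in NEVLP2, 1 against 2 in CS and 8 against 3 in naive, and its log2 ratio was smallest in CS (0.32). Ccl5 UMIs were 1770 against 898 in NEVLPcty, 3393 against 233 in NEVLP2, 100 against 29 in CS and 1442 against 61 in naive, and its log2 ratio was 2.54 in NEVLPcty, 6.34 in NEVLP2, 3.22 in CS and 6.18 in naive. The inhibitory receptor gene Lag3, with 2.60 (adjusted p 0.017), and the lectin-like receptor gene Klrb1c, with 3.76 (adjusted p 0.017), were higher in members in 4 of 4 libraries too. Lower in members were, among others, the apolipoprotein gene Apoe, with -1.71 (adjusted p 0.0219), the junctional adhesion gene Jam2, with -2.65 (adjusted p 0.0324), and the receptor accessory gene Ramp3, with -1.65 (adjusted p 0.0364). Siglech-holding barcodes made up 26.2% of the CD8-negative group in NEVLPcty, 49.0% in NEVLP2, 29.9% in CS and 15.7% in naive. With both groups held to 0 Siglech UMIs and few UMIs of other lineages, 33 of 5604 genes (0.589%) were higher in members and 22 (0.393%) lower. The log2 ratios were then 4.23 for Gzmm, 4.34 for Gzmk, 5.07 for Ccl5, 4.58 for Lag3 and 3.59 for Gzmb, and Ramp3 had -1.63. The calls of Apoe, with 0.01 (adjusted p 0.999), and Jam2, with -2.04 (adjusted p 0.241), were lost in edgeR there. These counts are sensitive to single libraries: 0 genes passed without naive (389 at an unadjusted p under 0.05), 8 without NEVLPcty, 15 without CS and 66 without NEVLP2.

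**Figure D4:**
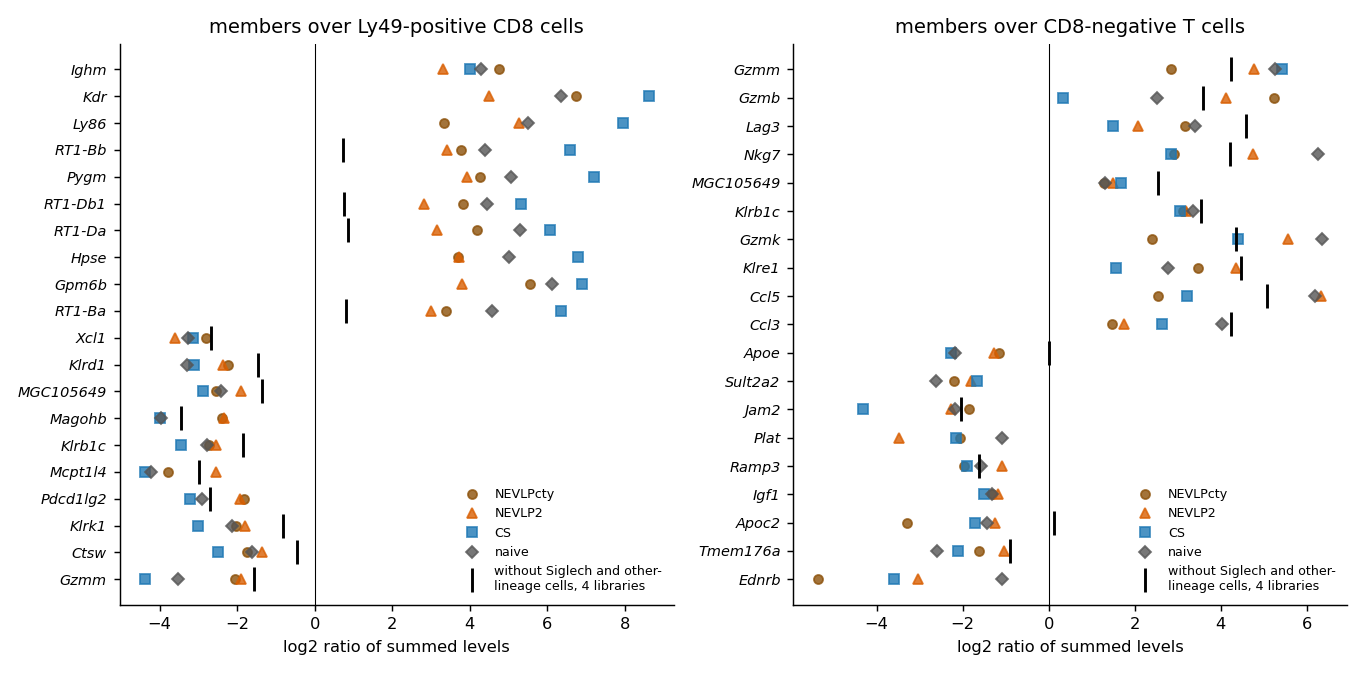
Points show the log2 ratio of summed levels (x axis) of members over Ly49-positive CD8 cells (left) and over CD8-negative T cells (right, CD3-positive barcodes) in each of 4 libraries, for the genes named in each contrast (y axis); black ticks mark the fit over 4 libraries without Siglech-holding and other-lineage cells. Ticks lie near 0 for Apoe and Apoc2, and near the points for Xcl1 and Magohb on the left and for Gzmm and Gzmk on the right.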

How the data were processed

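Single-cell RNA was measured in 4 rat liver libraries. The deposited counts are UMI counts per gene and barcode made by the authors with Cell Ranger (version 2.1.1 per the submitters' processing notes, while the file headers name 6.0.0). No source used here gives a genome build. Tables held 22250 features. Barcodes were kept as the rule states; no doublet caller was run, and 0 columns of per-sample values were left unused.

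Counts were summed over members per library and divided by their total to give CPM. Poisson intervals of levels, conditional binomial intervals of ratios and Clopper-Pearson intervals of shares are exact, at 95%, and cover counting error only. Ratios needed 20 UMIs in both libraries together, and a gene at 0 was set to 3 counts. No test was made between libraries. Cell groups were compared on 8 sums per contrast with edgeR 4.0.16 (quasi-likelihood, TMM, library as block) in R 4.3.3 at an adjusted p of 0.05. The sums of both cell groups come from the same library, which is the reason for the block. DESeq2 1.42.0 and other gates, scalings and filters were alternatives. The edgeR step was tested on simulated data with the spread fitted to all members. Of 50 genes changed 2-fold it recovered 15 against Ly49-positive cells and 24 against CD8-negative barcodes. Of 50 changed 4-fold it recovered 43 and 46. It called 4 of 5639 and 5 of 7740 unchanged genes. Many 2-fold differences would thus be missed.

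Members and gene lists were chosen with earlier results of these data known. Named genes were the 8 highest and 8 lowest per library comparison by the ratio bound nearest 1, up to 4 members per list, the IL-10 and TGF-β receptors, ligands and regulators, and the 10 of smallest p in each direction between cell groups with the same sign in 4 of 4 libraries. A part of these is described, and some genes are not reported here. Of the list genes, 26 are not among the features. Promoter sequences are from RefSeq, build GRCr8; all 4 genes shown were matched by symbol. Python 3.11.15 with scipy 1.17.1 was used.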

Additional observations from a re-analysis of the deposited data

Results flagged for a closer look

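The log2 ratio of Jam2 in members over CD8-negative barcodes was -4.31 in CS, against -1.86 in NEVLPcty, -2.27 in NEVLP2 and -2.18 in naive. The gap from CS to the nearest other library was a larger part of the whole range than Dixon's 95% critical value for 4 values. It was the 1 value past it among 39 examined, and chance passes it in about 1 of 20 groups. With few UMIs of other lineages in both cell groups, the Jam2 log2 ratio over all libraries was -2.04 and its call was lost (edgeR adjusted p 0.241).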

How the results depend on the processing

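The 15 cells in NEVLPcty and 18 in CS limit what core members can show, and low genes such as the cytokine receptors could not be compared. Settings using core members, leaving out the cell with most Top2a UMIs, or holding both cell groups to few other-lineage UMIs were chosen after seeing the data. The causes of the changes below were not tested.

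Over all members, the T cell identity median for CS over naive (-1.30) became 0.25 without barcodes holding wider lineage genes (4 members left in NEVLPcty, 13 in NEVLP2, 6 in CS and 21 in naive), 0.027 with Ccl5 or Nkg7 present and 0.24 in core members, and the median of other lectin-like receptors for NEVLP2 over CS became -0.74 without the wider lineage genes. In core members, Vim for NEVLPcty over NEVLP2 became -0.39 under that setting. Of the list medians recomputed in core members, 870 lay between the medians of the lower and upper 95% ratio limits and 71 outside them, and none of those at or past 2-fold changed sign; over all members 804 lay inside, 147 outside and 4 of those at or past 2-fold changed sign. Sign changes of medians under 2-fold are not counted here.

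Genes past 2-fold for CS over naive, NEVLP2 over naive, NEVLP2 over CS and NEVLPcty over NEVLP2 numbered 1284, 1804, 1576 and 918 over all members, and 596, 1302, 586 and 564 in core members. Without the wider lineage genes they numbered 250, 477, 218 and 174 over all members and 232, 457, 218 and 174 in core members. At a minimum of 50 UMIs they numbered 691, 947, 760 and 349 over all members and 168, 547, 217 and 191 in core members. At 10 UMIs they numbered 1540 over all members for NEVLPcty over NEVLP2, and 1196, 2101, 1172 and 1150 in core members. With Ccl5 or Nkg7 present there were 620 for CS over naive and 997 for NEVLP2 over CS over all members, and 866 for NEVLP2 over naive in core members. The mean of per-cell CPM gave 1031 for CS over naive in core members. The share of kept barcodes was 0.129% in NEVLPcty, 0.344% in NEVLP2, 0.167% in CS and 1.67% in naive for core members, and 0.481% in NEVLP2 with at least 2 Cd3 UMIs and 1 Cd8b UMI.

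Against Ly49-positive cells edgeR called 483 genes higher and 243 lower. In both directions it called 448 under the stricter gate, 13 without the wider lineage genes and 43 with few other-lineage UMIs, and 444 to 655 leaving out a library, with 444 without CS. Against CD8-negative barcodes it called 29 genes; DESeq2 called 67, no filter gave 226, the stricter gate 9, no wider lineage genes 106 and few other-lineage UMIs 55. Leaving out a library gave 0 to 66 calls. Without the library as block, which pairs the 2 sums of each library, edgeR called 261 genes against Ly49-positive cells and 0 against CD8-negative barcodes (167 at an unadjusted p under 0.05). Apoe and Apoc2 changed sign to log2 ratios of 0.013 and 0.12 with few other-lineage UMIs, and Igf1 to 0.30 under the stricter gate.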
